A study of Rattus norvegicus with 17 samples.

Results

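In rat cortical cultures given 2.0 µM FK506, the mRNAs of 3 calcium pumps and of the calcium release channel Itpr1 were lower than in cultures given the solvent alone, both with and without α-synuclein A53T. The store sensor Stim1, the channel gene Orai2 and the release channel gene Itpr2 were lower in cultures without A53T. The test of a difference in response between the 2 kinds of culture called 0 of these genes, against 14.6% of all genes. A count of 0 does not show that the responses were alike. Without A53T, the calls of the pump Atp2b1 and of Itpr2 each held in 1 of 6 fits with 1 library left out. Of all genes, 47.2% differed at an adjusted p under 0.05 (limma) without A53T and 37.6% with it. The genes described are 10 that sense, release, admit or pump calcium: Stim1, Stim2, Orai1, Orai2, Itpr1, Itpr2, Itpr3, Atp2a2, Atp2b1 and Atp2b2. They were taken by name from a fixed list, not by their values, and all 10 were among the 11247 genes measured.

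The cells were primary cultures of glutamatergic neurons and astrocytes from rat cerebral cortex. They had been infected to carry only a vector without insert (called vector here) or to carry α-synuclein A53T, the form of this protein of synapses that is mutated in a familial kind of Parkinson's disease. Each kind received the vehicle DMSO, or FK506 at 0.2 µM, a dose the series calls sub-saturating, or at 2.0 µM, a saturating dose. Of the 6 groups 5 had 3 libraries, and A53T in DMSO had 2. FK506 binds the immunophilin FKBP12, and the complex inhibits calcineurin, a phosphatase that calcium and calmodulin switch on. The type of virus, the promoter that drives α-synuclein, the age of the cultures and the length of treatment are not given in the sources used here, and no label ties the libraries of a group to different cultures. The p-values therefore rest on the spread among libraries, and that spread may be technical.

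The endoplasmic reticulum is the main calcium store of the cell. Receptors for inositol trisphosphate (IP3), encoded by Itpr1, Itpr2 and Itpr3, release its calcium, and the pump SERCA2, encoded by Atp2a2, refills it. When the store empties, the membrane sensors STIM1 and STIM2 gather under the plasma membrane and open ORAI channels, which is called store-operated calcium entry. The plasma membrane pumps encoded by Atp2b1 and Atp2b2 send calcium out of the cell. In many cells calcium that enters through ORAI1 activates calcineurin, which then sends NFAT transcription factors to the nucleus.

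Promoters are shown for 3 genes whose levels moved together over the samples (Atp2b1, Itpr1 and Atp2a2) and for Orai1, which moved against them, because the core motif of NFAT, GGAAA, is the sequence through which calcineurin acts on many genes. The sequences are RefSeq's for the rat build GRCr8 and run from 250 bases before to 50 after the annotated start, 300 bases in all, 5′ to 3′ on the strand of the gene. Capitals mark GGAAA or TTTCC, the same motif on the other strand.
Atp2b1, chr7:35622211-35622510, plus strand: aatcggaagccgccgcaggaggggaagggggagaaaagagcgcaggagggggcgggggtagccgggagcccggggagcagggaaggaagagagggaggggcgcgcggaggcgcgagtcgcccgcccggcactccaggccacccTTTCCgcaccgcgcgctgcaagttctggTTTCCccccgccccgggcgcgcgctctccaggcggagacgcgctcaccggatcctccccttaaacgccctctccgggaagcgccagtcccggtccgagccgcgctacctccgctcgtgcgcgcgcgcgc
Itpr1, chr4:142743190-142743489, plus strand: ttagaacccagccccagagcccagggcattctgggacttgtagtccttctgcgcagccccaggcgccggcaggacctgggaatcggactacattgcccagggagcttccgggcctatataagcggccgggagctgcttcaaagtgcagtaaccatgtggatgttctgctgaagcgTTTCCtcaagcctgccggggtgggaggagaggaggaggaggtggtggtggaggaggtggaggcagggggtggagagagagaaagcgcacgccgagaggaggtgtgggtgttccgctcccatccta
Atp2a2, chr12:39733269-39733568, plus strand: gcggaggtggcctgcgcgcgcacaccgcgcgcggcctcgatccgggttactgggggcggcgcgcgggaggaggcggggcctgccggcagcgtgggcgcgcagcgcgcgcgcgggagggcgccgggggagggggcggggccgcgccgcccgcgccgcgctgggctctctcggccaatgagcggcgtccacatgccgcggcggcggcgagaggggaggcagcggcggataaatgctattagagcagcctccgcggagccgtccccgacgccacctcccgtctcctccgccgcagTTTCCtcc
Orai1, chr12:39208981-39209280, minus strand: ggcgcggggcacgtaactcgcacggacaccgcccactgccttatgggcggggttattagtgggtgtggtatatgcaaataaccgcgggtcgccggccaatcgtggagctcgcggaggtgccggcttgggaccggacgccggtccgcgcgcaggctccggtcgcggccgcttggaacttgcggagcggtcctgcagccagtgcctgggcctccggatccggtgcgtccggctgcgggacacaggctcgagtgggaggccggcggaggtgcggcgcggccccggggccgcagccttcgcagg

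Of the 10 genes 9 had an entry in this promoter table, all but Orai2. GGAAA, read on both strands, occurred in 5 of the 9: 2 times in Atp2b1 and 1 time each in Itpr1, Itpr3, Atp2a2 and Atp2b2. It occurred in 62.7% of the 33469 rat promoters of that length, so the genes are near that share. The ER stress element, whose letters include those of the CCAAT box, was in 0 of the 9 and in 0.0657% of all promoters, and the cyclic AMP response element, TGACGTCA, was in 0 of the 9 and in 1.83% of all. The GC box GGGCGG was in 8 of the 9, against 33.1% of all promoters. The windows of the 9 genes held 62.0% to 79.0% G and C, and the median promoter 51.7%. The CCAAT box, CCAAT, was in 4 of the 9, Orai1 and Atp2a2 among them, against 37.5% of all. A match is a description of these letters only.

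The deposited values are normalized counts, with totals from 15091428 to 18335540 per library. They are not per gene length, so levels are compared between libraries and never between genes. The 3 libraries of A53T at 0.2 µM differed from each other by 0.995 to 1.05 times the noise of counting alone, for genes with means from 10 to 3000. For pairs within other groups this ratio was 1.48 to 14.5, so these 3 were counted as 1 sample. On the leading axis of variation within groups, on which each library has a score in SD units, those 3 libraries scored 6.75 to 6.81 and the other 14 between -3.28 and 2.07. There were 3 libraries that stood apart from the rest of their group: in vector replicate 1 at 0.2 µM and replicate 2 at 2.0 µM, and in A53T replicate 1 at 2.0 µM. A gene "rose" or "fell" where the adjusted p of limma, over all genes, was under 0.05, and a value after ± is a standard error unless called an SD. Changes are log2 fold changes of value + 1. In bulk RNA fewer cells of a type and less RNA per cell cannot be told apart.

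**Figure D1:**
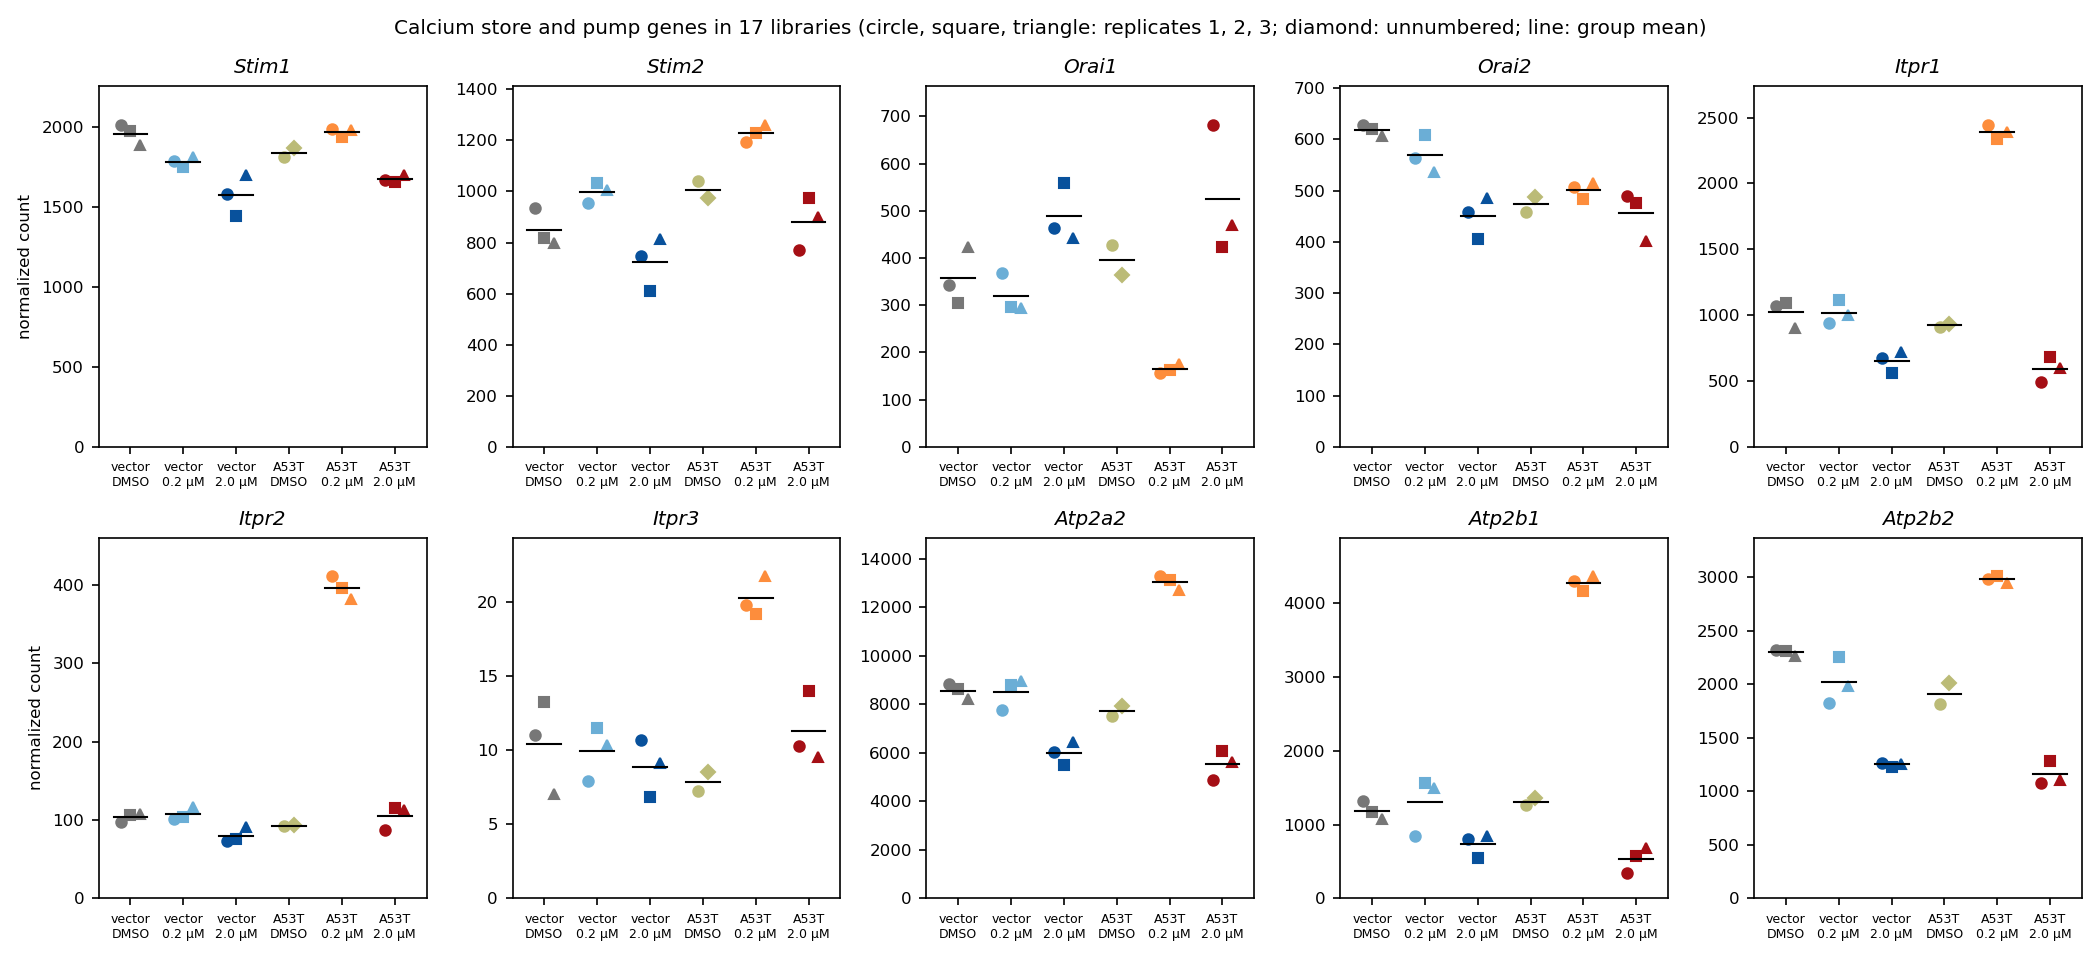
Normalized counts (vertical axis, starting at 0) of the 10 calcium genes in each of the 17 libraries, by group (horizontal axis), with a line at the group mean. In both genotypes Atp2a2, Atp2b1, Atp2b2 and Itpr1 lie lower at 2.0 µM FK506 than in DMSO, and the 3 libraries of A53T at 0.2 µM lie together, far above the others for Itpr2 and Atp2b1 and below them for Orai1.

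FK506 at 2.0 µM in vector cultures was followed by lower mRNA of 7 of the 10 genes: the pumps Atp2b2, Atp2a2 and Atp2b1, the IP3 receptors Itpr1 and Itpr2, the sensor Stim1 and the channel gene Orai2. None of the 10 rose. Of all genes 47.2% passed the threshold in this comparison, 23.8% lower and 23.4% higher, and the median of the 10 genes was -0.42 against 0 for all genes. In 8 of the 10 the libraries of the 2 groups did not overlap, as in 60.5% of all genes.

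Atp2b2 encodes PMCA2, a plasma membrane pump that works fast and is prominent in neurons. It read 2323, 2305 and 2261 normalized counts in the 3 vector libraries in DMSO, and 1268, 1226 and 1256 at 2.0 µM. The replicates of each group lie close together and far from those of the other. Atp2b2 fell by 0.88 on the log2 scale (± 0.08, adjusted p = 3.3e-06), to 54.4% of its level in DMSO. Atp2b1 encodes PMCA1, the plasma membrane pump that most cell types make. Its libraries read 1325, 1169 and 1071 in DMSO and 808.4, 550.2 and 840.9 at 2.0 µM. The groups did not overlap, but the library at 550.2 is replicate 2, one of those that stood apart. Atp2b1 fell by 0.72 (± 0.27, adjusted p = 0.0447).

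Atp2a2, whose product SERCA2 refills the store, read 8836, 8635 and 8204 in DMSO and 6037, 5509 and 6459 at 2.0 µM. Every treated library was below every control. Atp2a2 fell by 0.51 (± 0.09, adjusted p = 3.2e-04), to 70.1%. Itpr1, the IP3 receptor that neurons use most, read 1070, 1095 and 900.7 in DMSO and 676.8, 556.9 and 716.5 at 2.0 µM. It fell by 0.65 (± 0.13, adjusted p = 0.00104), to 63.6%. The lowest control was above the highest treated library. Itpr2, the receptor best known from glia and secretory cells, read 97.2, 106.0 and 107.9 in DMSO and 73.1, 75.7 and 91.1 at 2.0 µM. It fell by 0.38 (± 0.14, adjusted p = 0.0382). Itpr3 was near the low end of the table, at 7.07 to 13.2 in DMSO and 6.86 to 10.7 at 2.0 µM, and its difference of -0.19 had a 95% interval from -0.82 to 0.44.

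Stim1, the sensor that answers to strong store depletion, read 2014, 1974 and 1886 in DMSO and 1581, 1445 and 1701 at 2.0 µM. It fell by 0.32 (± 0.06, adjusted p = 7.1e-04), the smallest change among the 7. Stim2, the sensor that already responds to small losses of store calcium, overlapped between the groups, at 936.5, 816.4 and 798.7 against 746.0, 608.8 and 814.6. Its difference was -0.24 ± 0.11 (adjusted p = 0.0937). The 2 channel genes differed in sign. Orai2, a second pore subunit, read 628.7, 619.7 and 607.3 in DMSO and 458.3, 404.7 and 485.7 at 2.0 µM, and it fell by 0.46 (± 0.09, adjusted p = 0.0011). Orai1 read 342.0, 304.8 and 424.2 in DMSO and 464.2, 557.8 and 442.2 at 2.0 µM. All treated libraries lay above all controls, and the difference of 0.46 ± 0.18 had an adjusted p of 0.0514. The ratio of Orai1 to Orai2 counts in a library, in which gene length cancels between groups, was 0.544, 0.492 and 0.698 in DMSO and 1.013, 1.378 and 0.910 at 2.0 µM. The groups of ratios did not overlap, and their mean log2 ratios differed by 0.92 (exact permutation test, two-sided, p = 0.10, the smallest p that 3 against 3 allows).

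Leaving out any 1 of the 6 libraries of this comparison kept Atp2b2, Atp2a2, Itpr1, Stim1 and Orai2 past the threshold. Atp2b1 (adjusted p up to 0.164) and Itpr2 (up to 0.129) stayed past it in 1 of the 6 cases, with replicate 3 at 2.0 µM left out, and Orai1 passed with replicate 3 in DMSO left out (0.59, adjusted p = 0.0281) and Stim2 with replicate 3 at 2.0 µM left out (-0.33, adjusted p = 0.0369).

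**Figure D2:**
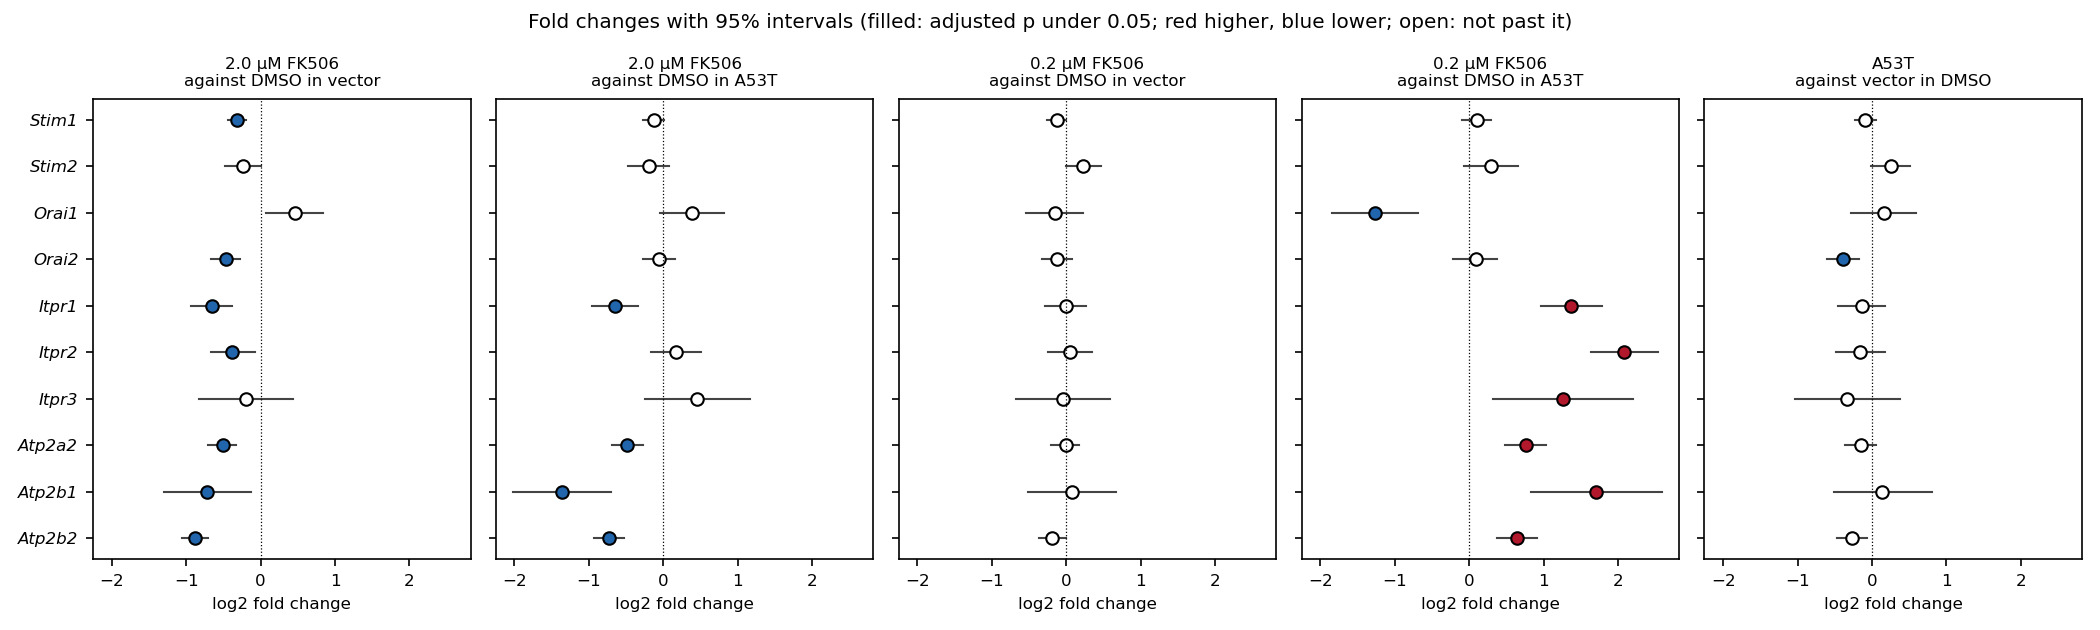
Log2 fold changes of the 10 genes (horizontal axis, points) with 95% intervals (lines) in 5 comparisons, filled where the adjusted p was under 0.05. At 2.0 µM the pumps and Itpr1 lie left of 0 in both genotypes, at 0.2 µM in vector all 10 points are open, and at 0.2 µM in A53T 6 genes lie right of 0 and Orai1 left of it.

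In A53T cultures 2.0 µM FK506 was followed by lower mRNA of 4 of the 10 genes, the 3 pumps and Itpr1, and none rose. Of all genes 37.6% passed here, 17.9% lower and 19.7% higher. In 6 of the 10 genes the groups did not overlap, as in 64.5% of all genes. The median of the 10 was -0.17 against 0.01 for all genes. The 2 A53T libraries in DMSO read 1258 and 1359 for Atp2b1, and those at 2.0 µM read 336.8, 577.3 and 675.6. Every treated library was below both controls, with replicate 1, a library that stood apart, the lowest. Atp2b1 fell by 1.36 (± 0.30, adjusted p = 0.00473). Atp2b2 read 1810 and 2011 in DMSO and 1079, 1286 and 1104 at 2.0 µM, and fell by 0.73 (± 0.09, adjusted p = 1.5e-04). Atp2a2 read 7523 and 7917 against 4890, 6072 and 5636, and fell by 0.49 (± 0.10, adjusted p = 0.00237). Itpr1 read 910.8 and 935.9 against 490.9, 684.3 and 601.5, and fell by 0.65 (± 0.14, adjusted p = 0.00433). These 4 genes passed whichever 1 of the 5 libraries was left out.

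The other 6 genes did not pass in A53T at 2.0 µM. Orai1 read 426.8 and 363.7 in DMSO and 682.3, 423.2 and 469.0 at 2.0 µM, so the groups overlapped, and the difference was 0.38 ± 0.20 (adjusted p = 0.142). The ratio of Orai1 to Orai2 was 0.933 and 0.745 in DMSO and 1.394, 0.891 and 1.166 at 2.0 µM. These overlap too (difference of mean log2 ratios 0.44, exact permutation test, two-sided, p = 0.40). So few libraries allow only a few arrangements, so a small p was out of reach. Orai2 differed by -0.06 ± 0.10, Stim1 by -0.13 ± 0.07 and Stim2 by -0.20 ± 0.12. Itpr2 differed by 0.17 ± 0.15 and Itpr3 by 0.45 ± 0.32. The test of the difference between the genotypes in their response to 2.0 µM called 0 of the 10 by limma, against 14.6% of all genes (8.14% higher and 6.45% lower). At an unadjusted p under 0.05 it held 2, Orai2 (0.41 ± 0.14, adjusted p = 0.0649) and Itpr2 (0.54 ± 0.21, adjusted p = 0.0907), both more positive in A53T. For Atp2b1 the difference in response was -0.65, with a 95% interval from -1.53 to 0.23.

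Marker genes of the cultured cells are given beside these results, for 2.0 µM against DMSO. Their counts are to be read against the shares of all genes. Those were 23.8% lower and 23.4% higher in vector, and 17.9% lower and 19.7% higher in A53T. The sum of 10 astrocyte markers ran from 103023 to 104758 normalized counts in vector in DMSO and from 44441 to 45554 at 2.0 µM, and 8 of the 10 fell and 2 rose, with a median of -0.91. In A53T it ran from 82799 to 86615 in DMSO and from 51770 to 54407 at 2.0 µM, but 4 fell and 3 rose, and the median was 0. Most of the lower sum in A53T was Gfap, the astrocyte filament, which changed by -2.42 there and by -1.76 in vector. Without Gfap the A53T sum ran from 47851 to 50217 in DMSO and from 45594 to 47086 at 2.0 µM, and the vector sum from 58896 to 59281 and from 30969 to 32333. Of 9 measured pan-neuronal markers, from a list of 10, 5 fell in vector, where the sum went from between 48645 and 52415 to between 34187 and 35977. In A53T 5 fell and 1 rose, and the sum went from between 46592 and 47592 to between 39587 and 43283. Of 8 glutamatergic markers 3 fell and 1 rose in vector (sum 11265 to 12869 in DMSO, 6559 to 8122 at 2.0 µM), and 6 fell in A53T (10456 to 11272, then 3936 to 6072). No marker among these 3 lists was at 0 in any group. Their part in the changes of the calcium genes was not tested. Of the markers of other cells, 0 of 8 microglial ones and 1 of 6 endothelial ones, at no more than 28 counts, were in the table. The 8 measured markers of GABAergic neurons summed to 30760 to 34679 in vector in DMSO and 12254 to 14201 at 2.0 µM, and 6 fell, and to 16432 to 16821 and then 10842 to 13710 in A53T, where 5 fell. The 7 measured oligodendrocyte lineage markers summed to 3306 to 3325 in vector in DMSO and 1550 to 1607 at 2.0 µM (3 lower, 1 higher), and in A53T to 2848 to 2863 and then 4119 to 4226 (2 lower, 4 higher). The 6 fibroblast and meningeal markers summed to 1229 to 1365 in vector in DMSO and 762 to 793 at 2.0 µM, with 3 lower, and to 942 to 1122 and then 459 to 543 in A53T, with 2 lower.

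At 0.2 µM in vector cultures limma called 0 of the 10 genes, where 18.3% of all genes passed, 10.6% lower and 7.7% higher. In 3 of the 10 the groups did not overlap, as in 38.7% of all genes. At an unadjusted p under 0.05 there were 2, both lower, Atp2b2 (-0.19 ± 0.08) and Stim1 (-0.13 ± 0.06). Atp2b2 read 1820, 2255 and 1979, all below the controls, and Stim1 read 1789, 1752 and 1810, also all below them. Their adjusted p-values were 0.123 and 0.127. Stim2 was the only gene of the 10 whose libraries all lay above the controls, at 955.5, 1034 and 1005 (0.23 ± 0.11, adjusted p = 0.158). For Itpr1 the 95% interval ran from -0.28 to 0.27 and for Atp2a2 from -0.20 to 0.17. Atp2b1 was the most variable, with 838.4 in replicate 1 and 1566 and 1492 in the others. Without the 3 libraries that stood apart Atp2b1 differed by 0.37 (adjusted p = 0.00138), and 3 of the 10 genes passed, the others being Stim1 lower and Stim2 higher. With the axis score as covariate the difference of Atp2b1 was -0.30, and in the fit of all 15 samples it was 0.08 ± 0.27. The score was computed from the spread of these same libraries, and the 3 libraries were set aside by their values. Either step lowers the spread, so p-values from these fits can be too small. The shares of all genes passing in these fits are not given here.

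Between the 2 doses in vector 8 of the 10 genes were lower at 2.0 µM than at 0.2 µM and Orai1 was higher, against 15.7% of all genes lower, 18% higher and 33.7% either way. In 8 of the 10 the doses did not overlap, as in 45.2% of all genes. This comparison and that of 2.0 µM with DMSO share the 2.0 µM libraries. Stim2, which had not passed against DMSO, fell by 0.47 (± 0.11, adjusted p = 0.00597). Orai1 was higher by 0.61 ± 0.18 (adjusted p = 0.0192), with 368.1, 295.7 and 294.9 at 0.2 µM. Itpr3 was the gene that did not pass (-0.15 ± 0.29). Atp2b2, Atp2a2, Itpr1 and Stim2 passed whichever library was left out. Without replicate 2 at 0.2 µM or replicate 2 at 2.0 µM only these 4 passed, and without replicate 3 at 0.2 µM 5 did. Atp2b1 overlapped between the doses, since replicate 1 at 0.2 µM (838.4) lay below replicate 3 at 2.0 µM (840.9).

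α-Synuclein A53T by itself, in DMSO, came with lower Orai2 and no other call among the 10, while 14% of all genes passed, 8.19% lower and 5.85% higher. Orai2 read 457.7 and 488.1 in A53T against 607.3 to 628.7 in vector, and fell by 0.39 (± 0.10, adjusted p = 0.0242). For comparison, the vector libraries at 2.0 µM read 404.7 to 485.7. Orai2 did not pass when any 1 of the 5 libraries was left out, with a change from -0.43 to -0.34 and an adjusted p from 0.0576 to 0.199. Atp2b2 was also below every vector library, at 1810 and 2011 (-0.27 ± 0.09, adjusted p = 0.0753), and Stim2 above every one, at 1039 and 974.1 (0.25 ± 0.12, adjusted p = 0.213). In 6 of the 10 genes the groups did not overlap, as in 60.4% of all genes. Without the 3 libraries that stood apart 4 of the 10 passed: Orai2, Atp2b2 and Atp2a2 lower and Stim2 higher. The share of all genes passing in that fit is not given here, so this count is not to be read as particular to these genes.

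At 2.0 µM A53T and vector cultures differed in 0 of the 10 genes by limma, against 19.6% of all genes (9.88% higher and 9.7% lower). All 10 overlapped between the genotypes, while 33% of all genes did not. At an unadjusted p under 0.05 there were 2, both higher in A53T. Itpr2 read 86.9, 115.1 and 113.3 in A53T against 73.1, 75.7 and 91.1 in vector (0.39 ± 0.14, adjusted p = 0.066). Stim2 read 771.0, 975.5 and 899.0 against 746.0, 608.8 and 814.6 (0.29 ± 0.11, adjusted p = 0.0839). Each passed in 1 of 6 fits with 1 library left out, with adjusted p up to 0.204 for Itpr2 and 0.233 for Stim2. That fit left out replicate 1 of A53T at 2.0 µM (Itpr2 0.52, adjusted p = 0.0209, and Stim2 0.38, adjusted p = 0.0321). This library stood apart and was the lowest of its group for both genes, so leaving it out raises the difference.

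The mean of the A53T libraries at 0.2 µM was the highest of the 6 groups for 8 of the 10 genes. The others were Orai1, where it was the lowest, and Orai2. Of these 8, Stim1 and Stim2 passed neither against DMSO nor against vector at this dose. Stim1 averaged 1969 there and 1958 in vector in DMSO. How many of all genes were highest in this group was not counted. Since the 3 libraries of this group counted as 1 sample, the tests assume that this sample varies like those of the other groups. Itpr2 read 411.1, 396.3 and 382.1 there, against 91.8 and 93.6 in A53T in DMSO and 117.0 at most in any other library. It rose by 2.08 (± 0.21, adjusted p = 1.0e-05). Atp2b1 read 4298, 4161 and 4367, against 1258 and 1359, and rose by 1.71 (± 0.41, adjusted p = 0.00266). Itpr1 read 2446, 2334 and 2394, against 910.8 and 935.9, and rose by 1.37 (± 0.19, adjusted p = 1.0e-04). These 3 genes stood at 382%, 360% and 234% of their level in vector in DMSO. Orai1 went the other way. It read 155.5, 161.9 and 174.6, against 426.8 and 363.7 in A53T in DMSO, and fell by 1.26 (± 0.27, adjusted p = 0.00133), to 45.9% of its level in vector in DMSO.

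In all, 6 of the 10 genes rose and 1 fell at 0.2 µM against DMSO in A53T, where 67.8% of all genes passed (33.6% higher and 34.2% lower), so such calls were common. In 9 of the 10 the groups did not overlap, as in 89.4% of all genes. The other 3 that rose were Itpr3 (1.26 ± 0.43), Atp2a2 (0.76 ± 0.13) and Atp2b2 (0.64 ± 0.12). Without replicate 1 of A53T in DMSO Itpr3 did not pass (1.16, adjusted p = 0.0738). Against vector at the same dose the same 7 genes passed in the same directions, against 68.9% of all genes (33.8% higher and 35.1% lower), and all 10 genes lay apart, as did 85.4% of all. Both comparisons share the A53T sample at 0.2 µM, so they are not independent. The test of the difference between the genotypes in their response to 0.2 µM called 6 of the 10, the 7 without Itpr3, against 47.3% of all genes (22.1% higher and 25.2% lower). Beside these values, the sum of 11 housekeeping genes was 113268 to 114122 in this group and 197828 to 202813 in A53T in DMSO, and 7 of the 11 fell. The pan-neuronal sum was 57528 to 58546, against 46592 to 47592 in A53T in DMSO, but 3 of the 9 rose and 2 fell, with a median of -0.07. The dendritic gene Map2 carried that sum: without it the sum was 39625 to 39827, against 45581 to 46852 in DMSO. The glutamatergic sum was 15730 to 16248, with 4 of 8 higher and 1 lower, and the astrocyte sum 60289 to 60605, with 2 of 10 higher and 3 lower. The part of these markers in the result was not tested. With the score on the within-group axis as a covariate, the changes against DMSO were 1.62 for Itpr2, 0.72 for Itpr1 and 0.28 for Atp2a2. Atp2b1 was then -0.16 and Orai1 -0.30. The slope on the score comes from the other libraries, at -3.28 to 2.07, while this sample lies at 6.75 to 6.81. These adjusted changes are therefore extrapolated and cannot decide which genes changed.

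Between the doses in A53T 7 genes were lower at 2.0 µM and Orai1 was higher (1.64 ± 0.25), against 77.3% of all genes past the threshold (38.5% lower and 38.7% higher). In 9 of the 10 the doses lay apart, as in 87.1% of all genes. The change was -3.07 for Atp2b1, -2.03 for Itpr1 and -1.92 for Itpr2, and all 3 values rest on the lone sample. An adjustment by the axis score was extrapolated here too, so it cannot decide which genes changed.

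**Figure D3:**
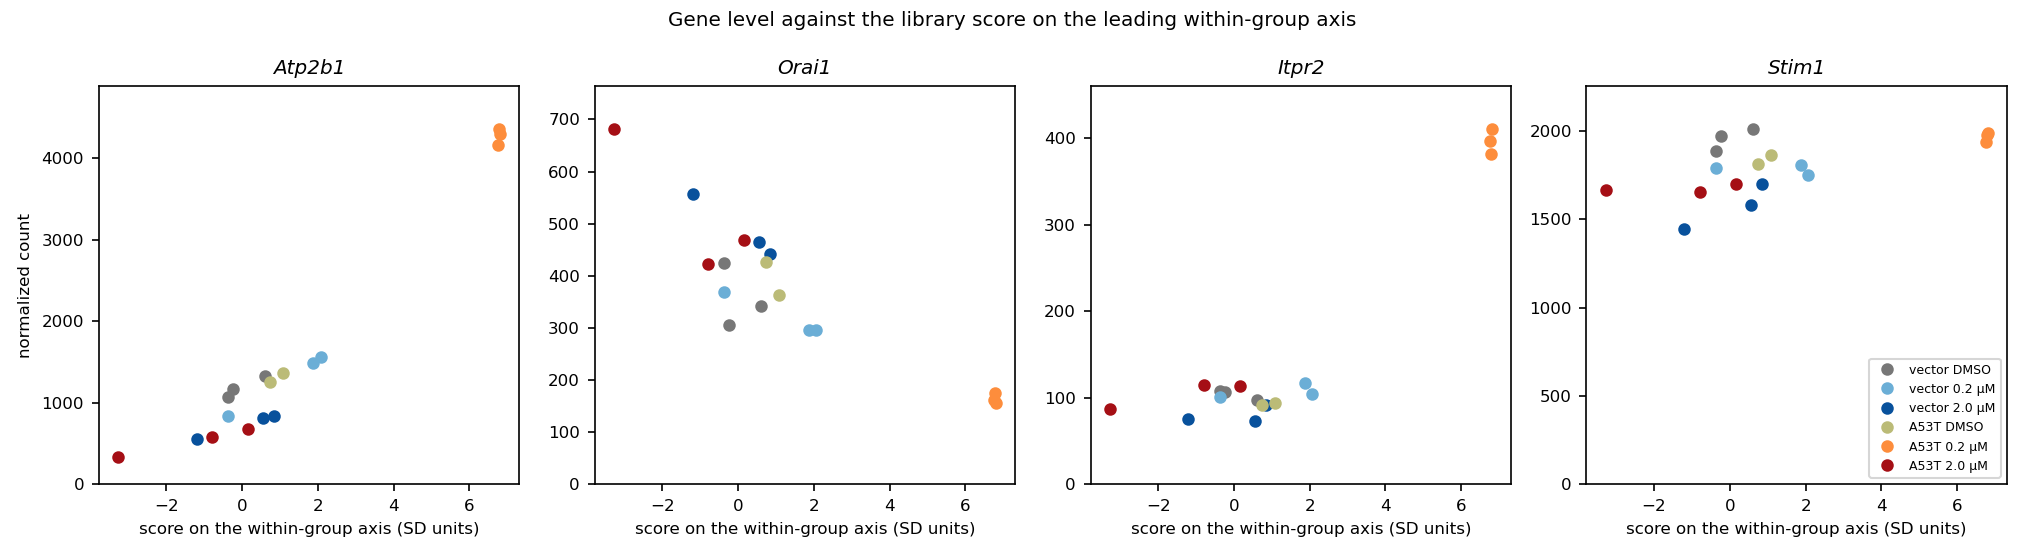
Normalized counts of Atp2b1, Orai1, Itpr2 and Stim1 (vertical axis, starting at 0) against each library's score on the leading axis of within-group variation (horizontal axis, SD units), with 1 point per library coloured by group. The 3 libraries of A53T at 0.2 µM sit at scores of 6.75 to 6.81, Atp2b1 climbs and Orai1 declines along the axis among the other libraries, and Itpr2 and Stim1 show little slope there.

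The genes differed in how far they followed that axis. The loading of Atp2b1 on it, 0.32, lay at percentile 93.5 of all genes, and that of Orai1, -0.16, at percentile 6.4. Orai2 and Stim1 had loadings of 0 and 0.02, near the middle. Over the 15 samples Itpr1, Atp2a2, Atp2b1 and Atp2b2 had correlations with each other of 0.87 to 0.98, and without the A53T sample at 0.2 µM, over 14 samples, of 0.86 to 0.99. Orai1 ran against them, at -0.84 to -0.97, and at -0.82 to -0.93 over the 14. The correlations of Itpr2 and Itpr3 with Itpr1, Atp2a2, Atp2b1 and Atp2b2 were lower over the 14. Itpr2 with Itpr1 went from 0.79 to 0.44, and Itpr3 with Itpr1 from 0.57 to 0.15. With Orai2 they were higher over the 14, from 0.12 to 0.4 for Itpr2 and from 0.2 to 0.3 for Itpr3. These correlations describe samples that share treatments, libraries and the normalization.

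Among the other genes measured, those most alike in pattern over the 15 samples were found by Pearson correlation of log2 values. For Itpr1 they were Sorbs2 (r = 0.988) and Ryr2 (0.987), the latter encoding another release channel of the store. For Atp2a2 they were Sorl1, an endosomal sorting receptor, at 0.989 and the cell surface protein gene Tenm3 at 0.988. For Atp2b1 one was Fbxl17, at 0.992. Atp2b2 was most like Abr (0.989) and Eif4g3 (0.986), and Orai1 most like Gdap1l1 and Eif3g, a translation initiation factor subunit, both at 0.983. Stim1 was most like Tmem214 (0.963) and Slc25a35 (0.939), Stim2 most like S1pr1, a sphingosine phosphate receptor (0.936), and Gatm (0.934), and Orai2 most like Sez6 (0.924) and Olfm4 (0.923). Itpr2 had Zfp292 (0.975) and Tbck (0.962), which went to 0.783 and 0.701 without the A53T sample at 0.2 µM. Itpr3 had Cstf2 (0.894) and Dock11 (0.824), which went to 0.814 and 0.645.

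Other genes of calcium handling, from lists chosen by function, are given for 2.0 µM against DMSO. Of all genes 23.8% were lower and 23.4% higher in this comparison in vector, and 17.9% and 19.7% in A53T, and each list's count is to be read against these shares. Of other pumps and pump partners 4 of 6 measured fell and 0 rose in each genotype, with medians of -0.45 and -0.42. Atp2b3, a further plasma membrane pump of neurons, fell by 0.92 ± 0.10 in vector and by 0.85 ± 0.12 in A53T. Neuroplastin (Nptn), an obligatory partner of these pumps, fell by 0.64 ± 0.15 and by 0.55 ± 0.17, and Tmem165, a Golgi ion transporter, fell by 0.56 ± 0.09 in vector. In A53T Atp2b4, another plasma membrane pump, fell by 2.35 ± 0.74, but without replicate 1 at 2.0 µM, its lowest library, the change was -1.57 (adjusted p = 0.0694). Exchangers that trade sodium for calcium fell in 5 of 7 cases and rose in 1 in vector, and fell in 6 of 7 in A53T, with medians of -0.69 and -0.49. Slc8a3 fell by 0.93 ± 0.12 in vector and by 0.71 ± 0.13 in A53T, and Slc24a4 by 0.80 ± 0.09 and by 0.49 ± 0.10. In A53T Nptn and Atp2b4 did not pass with either DMSO library left out (adjusted p = 0.101 to 0.127), and Slc24a4 did not with the second one left out (0.0624).

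Of 10 measured calcium-binding proteins of the store 6 rose and 3 fell in vector, against 23.4% and 23.8% of all genes. In A53T 5 rose and 0 fell, against 19.7% and 17.9%. Their median was 0.25 and 0.18, against 0 and 0.01 for all genes. Hspa5, the main chaperone of the store, which also binds calcium, rose by 1.13 ± 0.07 and 0.81 ± 0.08. Calu, a calcium-binding protein of the secretory pathway, rose by 0.60 ± 0.06 in vector, and Pdia4, a disulfide isomerase, by 0.54 ± 0.06 in vector and 0.39 ± 0.07 in A53T. Hsp90b1, the chaperone GRP94, rose by 0.47 ± 0.06 in A53T.

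Of the partners of the sensors and channels 2 of 12 rose and 5 fell in each genotype. All calls came to 7 of 12, where 47.2% of all genes passed in vector and 37.6% in A53T. Esyt1, a tether between the store and the plasma membrane, rose by 1.24 ± 0.07 in vector. The channel gene Trpc6 fell by 1.46 ± 0.14 and by 1.23 ± 0.16 in A53T, Jph3, which holds store and plasma membrane together in neurons, by 0.56 ± 0.04 and by 0.37 ± 0.05, and the scaffold gene Homer1 by 0.64 ± 0.08 in A53T. Other release channels and their regulators had 2 of 11 higher and 4 lower in vector, and 2 and 2 in A53T, near the shares of all genes. Ryr2, the ryanodine receptor, fell by 0.58 ± 0.12 and by 0.86 ± 0.14, and the granule protein gene Chgb by 0.76 ± 0.08 and by 0.35 ± 0.09. Tmbim6, which limits cell death under store stress, rose by 0.26 ± 0.05 in vector, and Tmco1, which lets calcium leave an overfilled store, by 0.38 ± 0.09 in A53T. With 1 DMSO library of A53T left out Chgb (adjusted p = 0.0622 and 0.0624) and Tmco1 (0.0807) did not pass there.

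Genes that make or remove IP3 fell in 7 of 13 cases in each genotype and rose in 0 and 1, where 23.8% and 17.9% of all genes were lower. Itpka, a kinase of dendritic spines that phosphorylates IP3, fell by 0.94 ± 0.12 and by 0.63 ± 0.14, and the phospholipase Plcd1 by 0.46 ± 0.06 and by 0.47 ± 0.07. Another phospholipase, Plcd4, was the one that rose, by 0.63 ± 0.11 in A53T. Cytosolic sensors and buffers fell in 10 of 15 cases in vector and 8 in A53T, against the same shares, and none rose. The buffer Calb1 fell by 1.25 ± 0.07 and by 0.88 ± 0.08, and the sensor Ncald by 0.81 ± 0.05 in vector. Of 9 genes of mitochondrial calcium uptake 3 fell in vector, and 1 fell and 1 rose in A53T, fewer calls than the 47.2% and 37.6% of all genes. Vdac2, a channel of the outer membrane, was the one that rose in A53T, by 0.25 ± 0.07. With 1 DMSO library of A53T left out Vdac2 (adjusted p = 0.0647 and 0.118) and Itpka (0.0642) did not pass there.

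**Figure D4:**
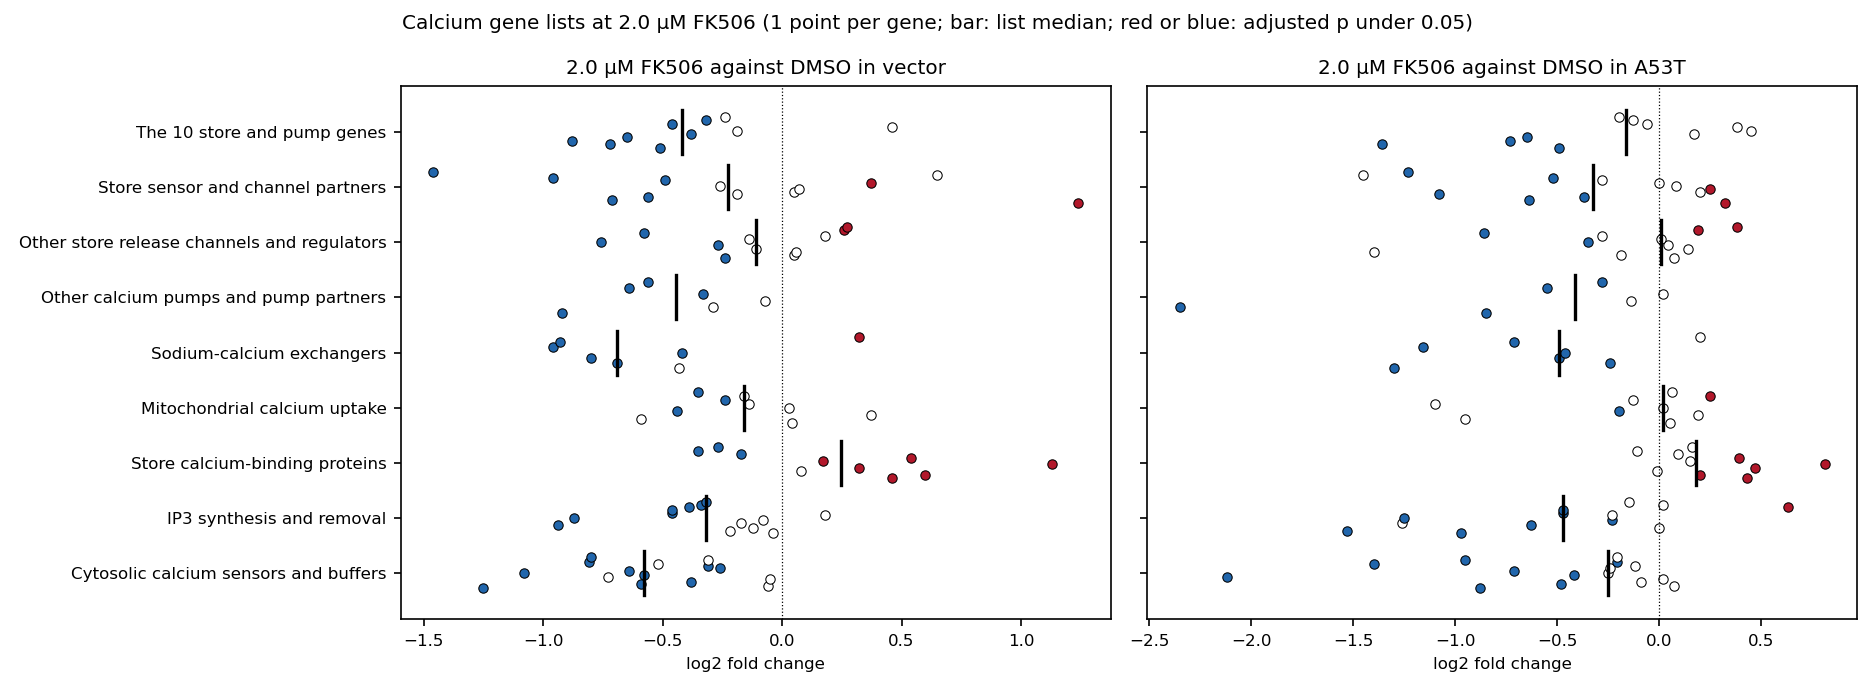
Log2 fold changes at 2.0 µM FK506 against DMSO (horizontal axis) of every measured gene of the 10 and of 8 further calcium lists (vertical axis), in vector and in A53T, with a bar at the median of each list and colour where the adjusted p was under 0.05. The medians of pumps, exchangers and cytosolic sensors lie left of 0 in both genotypes, and that of the store's calcium-binding proteins right of 0 (0.25 and 0.18).

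At 0.2 µM in A53T the lone sample showed large changes in the same lists. The exchanger genes Slc24a2 (3.75 ± 0.61) and Slc8a1 (2.27 ± 0.21), the release channel Ryr2 (1.71 ± 0.18), the phospholipase Plce1 (1.46 ± 0.15) and the pump Atp2b3 (1.24 ± 0.16) rose. The pump partner Bsg (-1.24 ± 0.17), the granule proteins Chga (-1.11 ± 0.15) and Chgb (-1.02 ± 0.12) and the kinase Itpka (-1.33 ± 0.19) fell. Saraf, which switches store-operated entry off, fell by 0.69 ± 0.11. At this dose in vector, Hspa5 (0.34) and Pdia4 (0.36) rose and Sdf4, a calcium-binding protein of the Golgi, fell (-0.38). These were the 3 calls among the 10 store proteins, where 7.7% of all genes were higher and 10.6% lower, and Sdf4 did not pass without replicate 2 at 0.2 µM (adjusted p = 0.0581), replicate 3 at 0.2 µM (0.0636) or replicate 3 in DMSO (0.065). In A53T in DMSO 9 of 15 cytosolic sensors and buffers fell, against 8.19% of all genes. Those with the smallest p were Ncald (-0.55 ± 0.06), Vsnl1 (-0.76 ± 0.08) and Calb1 (-0.73 ± 0.08). Of the 10 store proteins 3 rose, against 5.85% of all genes, Hspa5 (0.48 ± 0.08) among them.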

How the data were processed

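RNA from 17 libraries of rat cortical cultures was sequenced by the authors after a Qiagen RNeasy extraction and a stranded TruSeq mRNA preparation, per the labels' protocols. Per the submitters' processing notes, FastQC, TopHat, HTSeq and the rn6 build were used, with no versions stated. The deposited signal values are gene counts that the authors had normalized, since they are not whole numbers; the method is not given in the sources used here. A search for the value of 1 read gave whole reads (within 0.1 of a step for 95% of low values) in 8 of the 17 libraries, so no count model was used. Of the 11247 row labels 11093 matched a RefSeq symbol or synonym, and 23 had been turned into dates.

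Groups came from the labels. The main test was limma 3.58.1 (R 4.3.3) with a mean-variance trend on log2(value + 1), in 1 fit of 6 groups and 15 samples with 9 residual degrees of freedom, the 3 libraries of A53T at 0.2 µM being averaged into 1. P-values were adjusted by Benjamini and Hochberg over all genes; a minimum mean of 1 removed 0 genes. The axis is the first principal component of within-group deviations. It comes from the same libraries, so p-values of fits with its score as a covariate can be too small. The code was tested on simulated data. Python 3.11.15 was used for the rest. Alternatives were other pseudocounts, filters, scalings, sample sets, a replicate block and leaving out libraries. The axis score as covariate, marker sums without 1 gene and other calcium genes with 1 library left out were added after the data were seen. The ratio of Orai1 to Orai2 was not in the plan either. All 10 genes were named, with up to 3 genes with the smallest p past the threshold from each other calcium list in a comparison and the 2 genes most correlated with each of the 10. The genes, lists and tests were chosen with earlier results of these data known. Some genes that this rule names are not reported here.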

Additional observations from a re-analysis of the deposited data

Results flagged for a closer look

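The response to 0.2 µM FK506 differed between the genotypes for 6 of the 10 genes, and for 47.3% of all genes (22.1% higher and 25.2% lower). The test was the limma interaction term, which is the log2 change in A53T minus that in vector. It was 2.04 for Itpr2 (± 0.25, adjusted p = 1.6e-04), 1.63 for Atp2b1 (± 0.49, adjusted p = 0.0179) and 1.38 for Itpr1 (± 0.23, adjusted p = 0.00124). It was 0.83 for Atp2b2 (± 0.15, adjusted p = 0.00191) and 0.77 for Atp2a2 (± 0.15, adjusted p = 0.00351), and -1.11 for Orai1 (± 0.32, adjusted p = 0.0159). All 6 rest on the lone A53T sample at 0.2 µM. Atp2b1 (adjusted p = 0.0522) and Orai1 (adjusted p = 0.0571) did not pass without replicate 1 of A53T in DMSO. With the axis score as a covariate the term was 0.14 for Atp2b1 and -0.34 for Orai1. It was then 1.67 for Itpr2, 0.85 for Itpr1, 0.61 for Atp2b2 and 0.39 for Atp2a2. These adjusted terms are extrapolated, since the lone sample scores 6.75 to 6.81 and the other libraries -3.28 to 2.07.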

How the results depend on the processing

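For the 49 pairs of a gene and a comparison past the threshold, 635 results were recomputed under settings other than leaving out 1 library. Of these 594 kept direction and call, 38 kept direction only and 3 changed direction. The planned count models were not run, since whole reads were not recovered. The normalization and the low level of Itpr3 limit what can be seen.

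Shares of all genes in these settings are not given here, so no count is to be read as particular to the 10 genes. The count of the 10 genes past the threshold moved as follows. For A53T against vector in DMSO it was 1, and became 2 with all 17 libraries kept separate, 4 with only the compared groups fitted, 4 without the 3 libraries that stood apart, 5 with the axis score and 0 with any 1 library left out. For 0.2 µM in vector it was 0, and became 3 without the 3 libraries and 4 with the axis score. For comparisons with the lone A53T sample at 0.2 µM, an adjustment by the axis score is extrapolated. With it the count was lower for 0.2 µM in A53T, for the doses in A53T and for A53T against vector at 0.2 µM. For A53T against vector at 2.0 µM it was 0, and became 1 with quantile normalization, 2 with median centring, 1 without the trend, 1 with 17 libraries, 3 without the 3 libraries, 2 with the axis score and 0 to 2 with 1 library left out. For the interaction at 2.0 µM it was 0, and became 2 with quantile normalization, 2 with 17 libraries, 2 without the 3 libraries, 4 with the axis score and 0 to 1 with 1 library left out. Between the doses in vector it was 9, and 4 to 9 with 1 library left out.

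Directions changed as follows. For Atp2a2 at 0.2 µM in vector the change became 0.15 with quantile normalization, 0.05 without the 3 libraries and -0.05 to 0.05 with 1 library left out. Its interaction at 2.0 µM became -0.13 with quantile normalization and -0.04 to 0.11 with 1 library left out. Stim1 in A53T against vector at 0.2 µM became -0.06 with median centring. Atp2b1 at 0.2 µM in vector ran from -0.08 to 0.37 with 1 library left out. With the axis score Atp2b1 became -0.30 at 0.2 µM in vector, -0.16 at 0.2 µM in A53T, -0.01 in A53T against vector at 0.2 µM and 0.09 in the interaction at 2.0 µM. Stim2 then became -0.27 at 0.2 µM in A53T, 0.28 between the doses in A53T and -0.23 in A53T against vector at 0.2 µM, and Itpr3 became 0.12 between the doses in A53T. The cause was not tested.

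Replicate numbers in the titles were not shown to pair the samples. Of 22 same-numbered pairs 9 had a correlation over 0.1 (-0.51 to 0.67), and 5 of 13 libraries correlated best with their own number. A check on so few libraries cannot exclude pairing. A replicate block by title numbers, which leaves out the A53T library in DMSO whose column number matches no title of its group, gave 0 genes for A53T against vector in DMSO, 6 for 2.0 µM in vector, 7 for the doses in vector and 3 for 2.0 µM in A53T; a block by column numbers gave 0, 7, 9 and 4. At 2.0 µM in vector Atp2b1 did not pass without the trend (adjusted p = 0.0639) or with the title block (0.0584), Itpr2 did not with only the compared groups (0.0545), and Orai1 passed with 17 libraries (0.0334), only the compared groups (0.0203) or without the 3 libraries (0.36, adjusted p = 0.0156).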
